A study of Mus musculus with 24 samples.

Results

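Cadherins are calcium-dependent adhesion proteins that span the cell membrane, and cells tend to bind neighbors that carry the same cadherin. Classical cadherins of types I and II hold on to the actin skeleton through catenins, protocadherins have tails of other kinds, and the seven-pass Celsr proteins act in planar cell polarity, the shared orientation of cells within a tissue. In the developing nervous system, epithelial cells that enter the neural lineage are known to exchange E-cadherin (Cdh1) for N-cadherin (Cdh2), and combinations of type II cadherins are known to sort motor neurons into pools and nuclei. The genes described here were all entries of the expression table whose symbol was Cdh or Pcdh with a number, Pcdh11x, or Celsr1 to Celsr3, without the clustered protocadherins. There were 37 of them among 22889 entries: 5 type I classical cadherins, 12 type II classical cadherins, 5 other cadherins, 4 delta-1, 5 delta-2 and 3 other protocadherins, and 3 seven-pass Celsr genes.

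They were measured in 24 bulk RNA-seq samples, 6 in each of 4 groups, all from mouse embryonic stem cell (mESC) lines patterned as embryoid bodies for 5 days and sorted by fluorescence-activated cell sorting (FACS). Oculomotor cultures came from an Islet1-GFP line that carried Phox2a under the nestin enhancer, which is active in neural progenitors, and received 250 nM SAG, a Smoothened agonist, and 100 ng/ml Fgf8. Spinal cultures came from an Hb9-GFP line and received 500 nM SAG and 100 nM retinoic acid. The GFP-positive fraction was sorted for the motor neurons of each culture, and the GFP-negative fraction was the remaining cells. GFP-positive samples are called motor neurons here by that sort, also where markers of other cells were present. Line, reporter, transgene and patterning factors changed together between the cultures, so their shares in any difference cannot be told apart. The labels do not say that replicates were separate cultures, and p-values measure the spread between these samples, which may be technical. Levels are RPKM, reads normalized to the length of the gene and to the mapped reads of the library. Changes are differences of log2(RPKM + 1), tested with limma and adjusted by the Benjamini-Hochberg method over all genes tested, and a gene with an adjusted p under 0.05 is called.

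The estimated depth ran from 752555 to 7675846 mapped reads, and replicates 5 and 6 of every group (at least 4822713) were deeper than replicates 1 to 4 (at most 4642553). The sorting markers followed the labels except in the spinal libraries of number 4. Mnx1, the gene whose Hb9 promoter drove the spinal reporter, stood at 43.1 RPKM in the GFP-positive and 69.4 RPKM in the GFP-negative library labeled spinal 4, against 55.8 to 149 and 0.189 to 4.72 RPKM in the other 5 of each group, so that the GFP-negative library went against its label. The same 2 libraries held Nanog, a pluripotency factor, at 156 and 185 RPKM (at most 40.5 in the other spinal libraries), and the GFP-positive one held the neuronal tubulin Tubb3 at 36.4 RPKM (121 to 785 in the other 5). In the spinal GFP-negative library 2, 3 gene models held 68.8% of the summed RPKM, which lowers the RPKM of its other genes. The same 3 models held 17.8% in the spinal GFP-positive library 2, in which Cdh6 and Cdh22 were at 0. The pair of number 4 is therefore left out in a second fit, whose values are given beside the main spinal results.

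All 37 genes lay above 0 RPKM in at least 1 sample, between 18 and 30 of them did so in any 1 sample, and between 5 and 17 lay above 1 RPKM. On this per-length scale Cdh2 had the highest mean level over the 24 samples (22.1 RPKM), followed by Celsr2 (8.49), Cdh6 (5.74), Cdh1 (4.99), Cdh22 (4.27) and Celsr3 (4.17). Cdh2 was the highest of all 37 in 17 samples: 5 oculomotor GFP-positive, 3 oculomotor GFP-negative, 4 spinal GFP-positive and 5 spinal GFP-negative. At the other end, Cdh9, Cdh16, Cdh17, Cdh18, Cdh23, Cdh26, Pcdh11x, Pcdh12, Pcdh15 and Pcdh20 never reached 1 RPKM. Among these, Cdh26 and Pcdh12 were above 0 in 1 sample each, with 1 and 2 reads, so at this depth their levels could not be compared between groups.

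**Figure D1:**
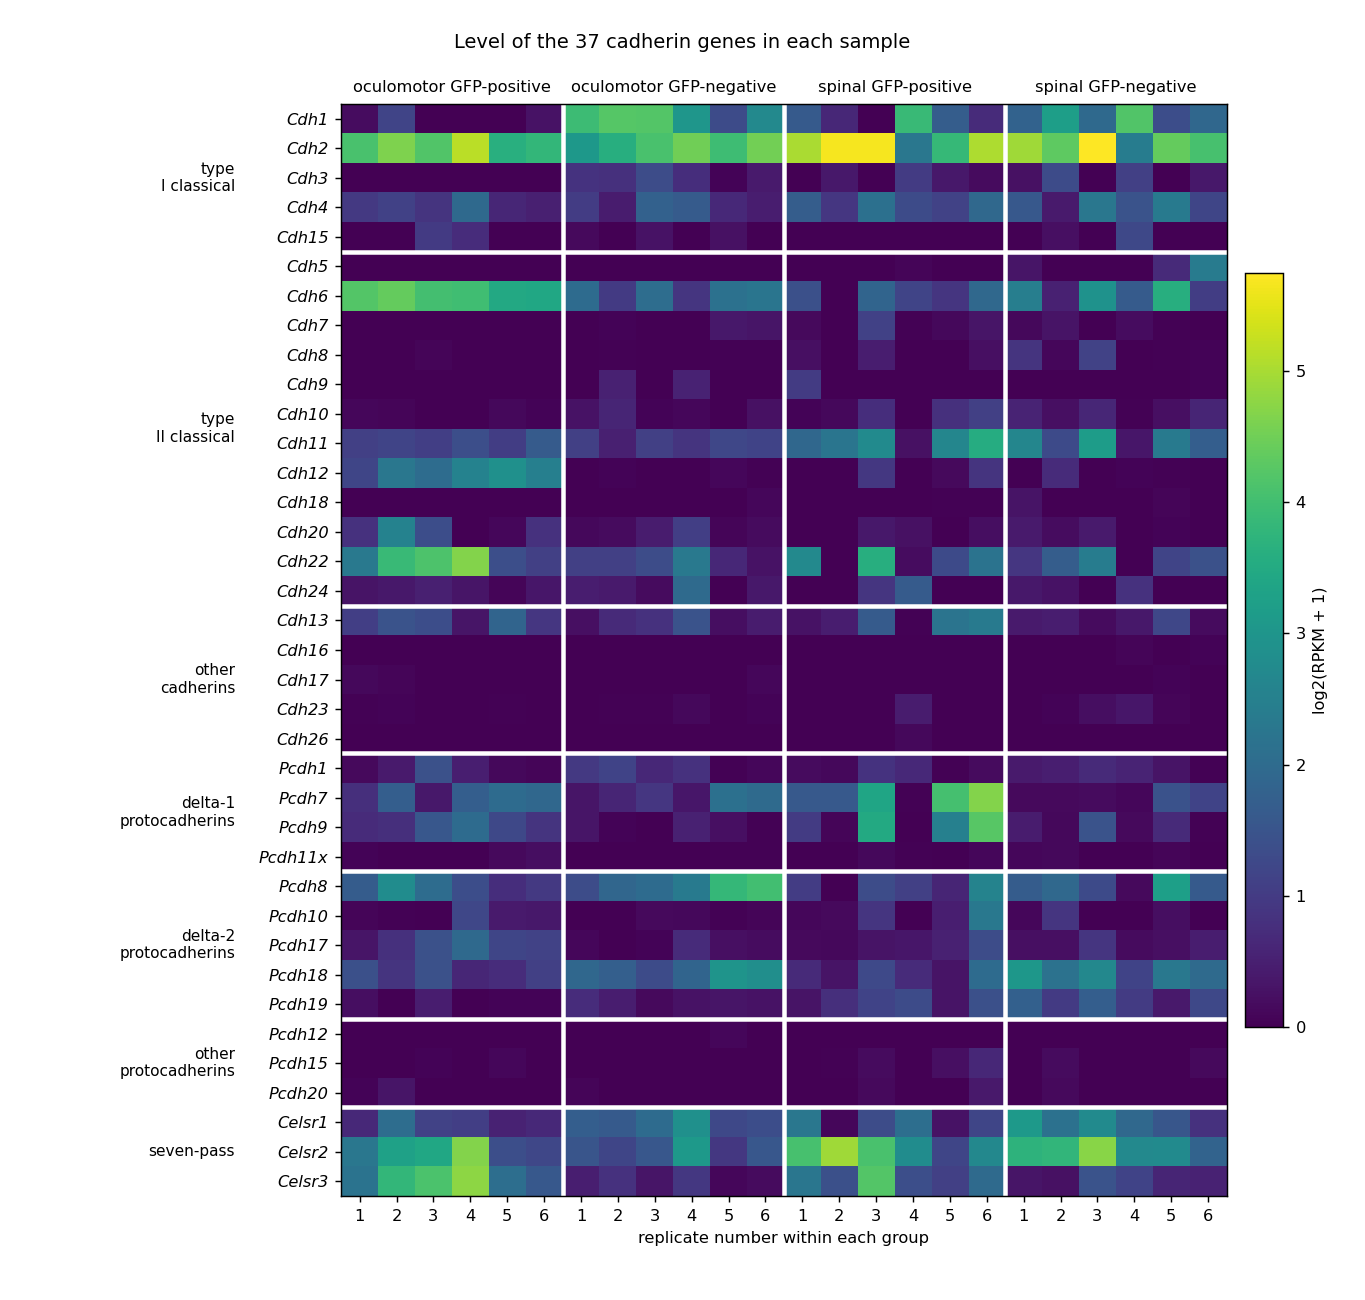
Level of each of the 37 genes (rows, grouped by role) in each of the 24 samples (columns, 6 replicates a group), as log2(RPKM + 1) from dark (0) to yellow. Cdh2 is bright in nearly every column, Cdh6 and Cdh12 stand out in the 6 oculomotor GFP-positive columns, and Cdh1 is dark there and bright in most oculomotor GFP-negative columns and in replicate 4 of both spinal groups.

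The first question was which cadherins distinguished oculomotor from spinal motor neurons, with 6 GFP-positive samples of each. Of 32 members tested, 2 were called (Cdh6 and Cdh12), both type II cadherins and both higher in oculomotor neurons, where 0.603% of all 19240 genes tested were called. These 2 were also the only members whose 6 values of one group all lay above the 6 of the other, which held for 1.43% of all genes tested. In bulk samples such as these, fewer cells of a type and less RNA per cell cannot be told apart.

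Both genes belong to a run of type II cadherin genes on chromosome 15 that holds Cdh6 (chr15:13028701-13173675, minus strand), Cdh9, Cdh10, Cdh12 (chr15:20449265-21589533, plus strand) and Cdh18, in GENCODE M21 coordinates of GRCm38, the build also named mm10. The genes between and beside them were low: Cdh9 reached at most 0.998 RPKM in any sample, Cdh18 at most 0.241 and Cdh10 at most 1.13, in a spinal GFP-positive sample. The promoters of the 2 genes are shown because they were called together in 3 comparisons. They are the 250 bases before the RefSeq start (GRCm38.p6), chr15:13173676-13173925 on the minus strand for Cdh6 and chr15:21111202-21111451 on the plus strand for Cdh12, whose RefSeq start lies inside the longer GENCODE gene. Capitals mark TAAT, the core that many homeodomain proteins bind, and CANNTG, the E-box of basic helix-loop-helix proteins, on either strand.
Cdh6: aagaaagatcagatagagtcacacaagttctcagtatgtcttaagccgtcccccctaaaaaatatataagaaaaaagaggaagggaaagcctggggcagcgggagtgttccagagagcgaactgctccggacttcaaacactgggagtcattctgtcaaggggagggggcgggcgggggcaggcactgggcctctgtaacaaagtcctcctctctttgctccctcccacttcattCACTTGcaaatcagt
Cdh12: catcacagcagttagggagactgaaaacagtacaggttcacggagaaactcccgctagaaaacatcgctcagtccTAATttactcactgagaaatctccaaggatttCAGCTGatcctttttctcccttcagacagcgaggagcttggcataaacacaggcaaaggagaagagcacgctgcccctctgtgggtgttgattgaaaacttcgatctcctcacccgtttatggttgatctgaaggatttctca
The Cdh6 window holds 1 CANNTG and no TAAT, and the Cdh12 window 1 of each, which do not overlap. Of the 32851 promoter windows of the same length in this RefSeq table, 54.9% hold TAAT and 66.2% hold CANNTG on either strand, so these matches are common and are given as a description of the sequences. The windows of Celsr3 and Pcdh17, described below, hold neither.

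Cdh6 (K-cadherin), a type II cadherin known from motor pools and the developing kidney, lay between 9.74 and 20.01 RPKM in the oculomotor GFP-positive samples, with a median of 15.0. The spinal motor neurons held 0 to 2.87 RPKM, with a median of 1.45. It lay in the oculomotor GFP-negative samples between 0.845 and 3.67, with a median of 3.10, and in the spinal GFP-negative samples between 0.449 and 11.2, with a median of 3.31. Every spinal GFP-positive value thus lay below every oculomotor GFP-positive value, while the spinal GFP-negative samples reached into the oculomotor GFP-positive range. The mean was 14.6 ± 4.06 RPKM in the oculomotor type and 1.54 ± 1.09 RPKM in the spinal one (SD, n = 6 each). The log2 change was 2.71 (SE 0.36, 95% interval 1.92 to 3.49; limma, adjusted p = 0.00274).

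Cdh12 (N-cadherin 2), a brain type II cadherin, lay between 1.299 and 6.41 RPKM in the oculomotor GFP-positive samples, with a median of 4.24. Elsewhere it was close to absent: the oculomotor GFP-negative group held 0 to 0.0735 RPKM (median 0.0143), the spinal GFP-positive group 0 to 0.922 RPKM (median 0.0490) and the spinal GFP-negative group 0 to 0.628 RPKM (median 0.0126). It rested on 34 to 231 reads per oculomotor GFP-positive library, and on 4 reads over all 6 oculomotor GFP-negative libraries, of which 3 were listed at 0. In the spinal GFP-positive group 3 libraries were at 0 and 2 held most of its reads. The change between the motor neuron types was 1.92 on the log2 scale (SE 0.35, 95% interval 1.17 to 2.67; limma, adjusted p = 0.0237), with oculomotor and spinal means of 4.03 ± 1.74 and 0.305 ± 0.437 RPKM (SD, n = 6 each).

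The neuron marker list (6 genes) summed to 825 to 1425 RPKM in oculomotor and 69.6 to 1446 in spinal GFP-positive samples (372 to 1446 without number 4). The 8 neural progenitor genes summed to 32.0 to 202 and 146 to 1370 RPKM, and the 6 pluripotency genes to 0.315 to 259 and 14.4 to 12400 RPKM. Both spinal ranges were the same without number 4. No gene of these lists was called between the types (limma), with 2, 4 and 3 of them at an unadjusted p under 0.05. The part of these lists in the changes of Cdh6 and Cdh12 was not tested. Without spinal sample 4 both changes stayed called (log2 changes 2.70 and 1.86, limma, adjusted p = 0.00631 and 0.0481). Within replicates 1 to 4 the log2 changes were 3.05 for Cdh6 (limma, adjusted p = 0.0411) and 1.78 for Cdh12 (0.249), and within replicates 5 and 6, with 2 samples a group, 2.03 (0.171) and 2.20 (0.147). The Cdh12 call was lost on leaving out oculomotor GFP-positive sample 2, 5 or 6 (limma, adjusted p = 0.0607, 0.0522 and 0.0581) or spinal GFP-positive sample 1 or 5 (0.0722 and 0.0627), with log2 changes from 1.79 to 1.91.

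No other member was called between the motor neuron types. Of these, 6 had an unadjusted p under 0.05, as did 1951 of all 19240 genes tested: Cdh20 and Pcdh17 with higher means in oculomotor neurons, and Cdh1, Cdh3, Cdh10 and Pcdh19 with higher means in spinal motor neurons. The lowest p of these was that of Pcdh19, a delta-2 protocadherin of the X chromosome, at 0 to 0.374 RPKM in the oculomotor and 0.225 to 1.66 RPKM in the spinal type. These ranges overlap, and the log2 change was -0.74 (SE 0.21; limma, adjusted p = 0.188). Cdh2, the neural classical cadherin, had medians of 16.6 RPKM (11.4 to 34.4) and 31.7 RPKM (3.84 to 49.9), and a log2 change of -0.33 with a 95% interval from -1.48 to 0.81. Without spinal sample 4 that change was -0.80 (95% interval -1.62 to 0.03). Cdh22, a type II cadherin of brain, lay between 1.13 and 24.6 RPKM (median 8.94) in oculomotor and between 0 and 11.1 RPKM (median 2.52) in the spinal type, and the interval of its log2 change (1.26) ran from -0.40 to 2.91. The median log2 change over the 32 members was -0.08, and over all genes tested -0.04.

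**Figure D2:**
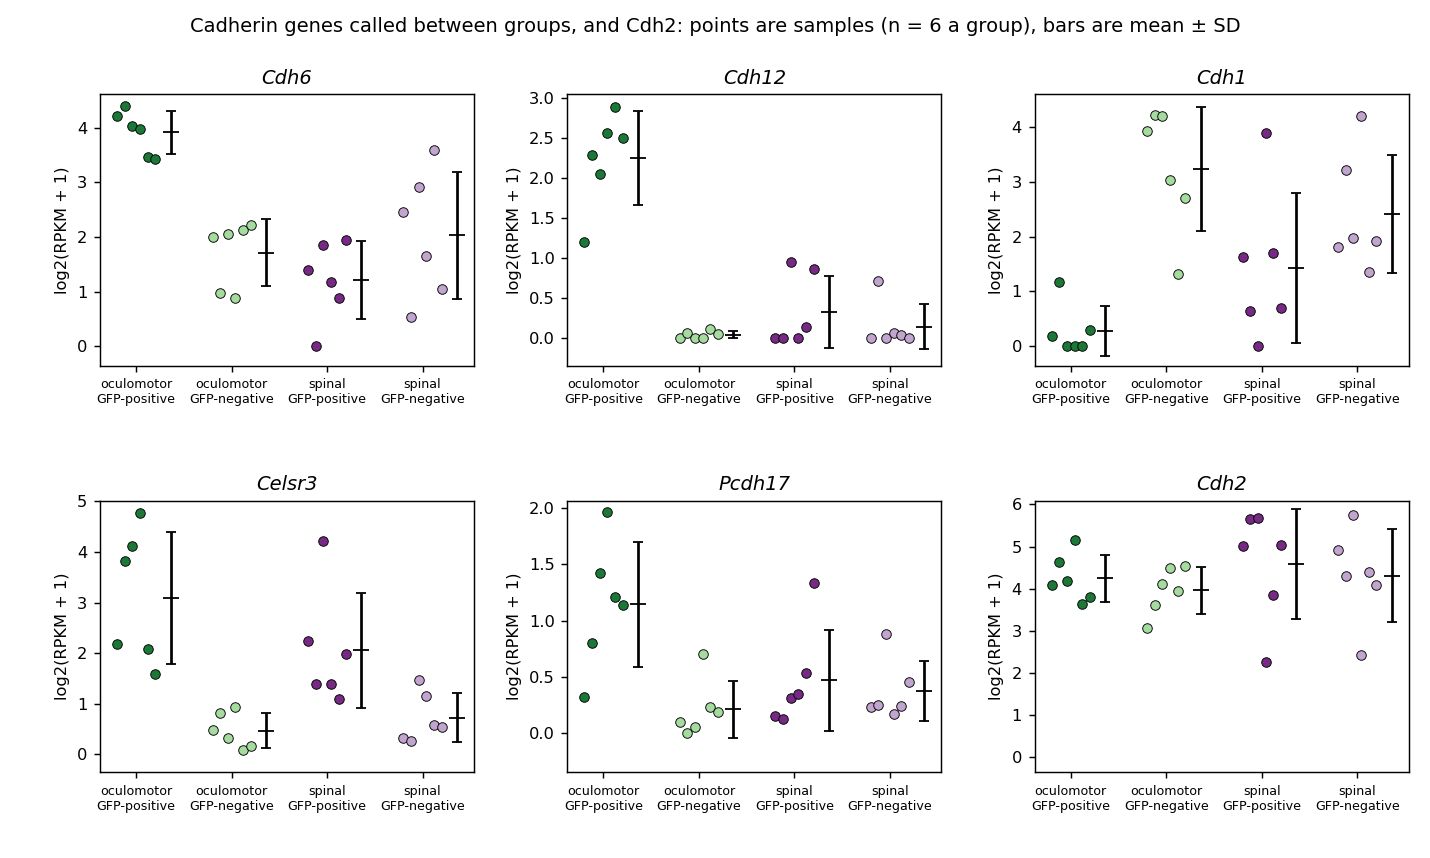
Levels of 6 genes as log2(RPKM + 1) in the 4 groups; each point is a sample, and the bar beside each group is its mean ± SD on this scale (n = 6). The 6 oculomotor GFP-positive points lie above all others for Cdh12, and for Cdh6 above all but 1 spinal GFP-negative point (11.2 RPKM), Cdh1 is at or near 0 in 5 of these samples, and the Cdh2 groups overlap.

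As a share of the summed RPKM of the 17 classical cadherins, Cdh2 held 30.1% to 40.9% in each oculomotor GFP-positive sample (median 37.1%) and Cdh6 17.6% to 41.7% (median 29.2%). Among spinal motor neurons Cdh2 made up 15.9% to 90.0% (median 61.3%), the lowest in sample 4. Of the other type II cadherins in oculomotor neurons, Cdh22 held 3.50% to 29.3% (median 14.6%) and Cdh12 3.08% to 20.4% (median 5.64%). These shares are a description of the samples, without a test.

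The second question was how the cadherins differed between the sorted fractions of a culture. In oculomotor cultures, 5 of 35 members tested were called, 4 higher in the GFP-positive cells (Cdh6, Cdh12, Celsr3 and Pcdh17) and 1 lower (Cdh1), where 6.15% of all 22179 genes tested were called. In 6 members the 6 values of one fraction all lay above the other 6 (6.52% of all genes tested): Cdh6, Cdh12, Celsr3 and Pcdh9 were apart with the GFP-positive cells higher, and Cdh1 and Cdh3 with these cells lower. Within a culture, both fractions of a number deviated together, so a fit with the pairs as a replicate block is given beside the main one. It called 7 members, these 5 with Cdh3 and Cdh22, where 16.4% of all genes tested were called.

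Cdh6 and Cdh12 separated the oculomotor fractions as they did the motor neuron types. The log2 change from GFP-negative to GFP-positive was 2.20 for Cdh6 (SE 0.44; limma, adjusted p = 0.00299) and 2.21 for Cdh12 (SE 0.24; limma, adjusted p = 1.85e-06), and each was higher in the GFP-positive sample in 6 of 6 pairs. Within replicates 5 and 6 alone, Cdh12 was the 1 member called in this comparison (log2 change 2.62; limma, adjusted p = 0.00976), where Cdh6 changed by 1.27 (0.448) and Celsr3, described next, by 1.71 (0.0531). Within replicates 1 to 4, Cdh12, Cdh6 and Celsr3 were all called (log2 changes 2.01, 2.67 and 3.08; limma, adjusted p = 0.00166, 0.0112 and 0.0145).

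Celsr3, the seven-pass cadherin known from axon guidance, lay between 2.00 and 26.3 RPKM in oculomotor GFP-positive samples (median 8.32) and between 0.0688 and 0.922 in GFP-negative samples (median 0.330). Every GFP-positive sample was above every GFP-negative one, and the log2 change was 2.62 (SE 0.52; limma, adjusted p = 0.00263). In spinal cultures Celsr3 had a median level of 2.30 RPKM in GFP-positive samples (1.12 to 17.6) and of 0.481 in GFP-negative samples (0.196 to 1.76). It was higher in the GFP-positive sample in 6 of 6 spinal pairs too, but the log2 change of 1.33 (SE 0.52) was not called (limma, adjusted p = 0.314). With the pairs as a block and number 4 left out it was 1.55 (adjusted p = 0.0494), and the difference between the cultures was not called (interaction 1.29, 95% interval -0.23 to 2.81). That was the 1 spinal call of Celsr3 in 12 settings other than leaving out 1 sample, where adjusted p reached 0.597 (limma).

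Pcdh17, a delta-2 protocadherin, lay between 0.249 and 2.90 RPKM in oculomotor GFP-positive samples (median 1.26) and between 0 and 0.624 in GFP-negative samples (median 0.104). It was higher in the GFP-positive sample in 6 of 6 pairs, although the groups overlap, with a log2 change of 0.93 (SE 0.23; limma, adjusted p = 0.0157). In spinal cultures its levels were 0.0904 to 1.52 RPKM (median 0.256) and 0.124 to 0.838 RPKM (median 0.183). Its call was lost within replicates 1 to 4 and within replicates 5 and 6 (log2 changes 0.91 and 0.97; limma, adjusted p = 0.132 and 0.111).

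Cdh1 (E-cadherin), the adhesion protein of epithelia and of embryonic stem cells, went the other way. It lay between 1.496 and 17.7 RPKM in oculomotor GFP-negative samples (median 10.7) and between 0 and 1.25 in GFP-positive samples (median 0.0706), with 3 of these listed at 0 and 31 reads over all 6. The groups do not overlap, and the log2 change was -2.96 (SE 0.59; limma, adjusted p = 0.00276). Within replicates 5 and 6 it was -1.87 (limma, adjusted p = 0.118) and within replicates 1 to 4 -3.50 (0.0147).

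Cdh3 (P-cadherin), its neighbor on chromosome 8 (Cdh3 at chr8:106510891-106557297, Cdh1 at chr8:106603351-106670246, both on the plus strand), had the same order at lower levels, and is named here after its values were seen. It was listed at 0 in all 6 oculomotor GFP-positive samples, where 1 read was worth 0.033 to 0.161 RPKM, and lay between 0.0473 and 1.51 RPKM in the GFP-negative samples (median 0.712). It was called with the pairs as a block (limma, adjusted p = 0.0115) and not in the fit without (0.0644). That fit did call it on leaving out oculomotor GFP-negative sample 5, spinal GFP-positive sample 4 or spinal GFP-negative sample 2 or 4 (limma, adjusted p = 0.0301, 0.041, 0.0341 and 0.0484). Cdh22 also gained a call only with the block (log2 change 1.79; limma, adjusted p = 0.0102 against 0.112), being higher in the GFP-positive sample in 6 of 6 oculomotor pairs, at 1.13 to 24.6 RPKM against 0.218 to 4.00 RPKM (median 1.13).

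Markers of several other cell states moved with Cdh1. Of the 8 epithelial genes tested, 5 fell from GFP-negative to GFP-positive oculomotor cells (Epcam, Krt8, Krt18, Cldn6 and Cldn7), and the list summed to 0.805 to 15.2 RPKM in GFP-positive and 27.8 to 306 RPKM in GFP-negative samples. Of the 6 pluripotency genes, 5 fell (Nanog, Zfp42, Esrrb, Dppa5a and Tdgf1), with sums of 0.315 to 259 and 684 to 9876 RPKM, and all 6 neuron markers rose, with sums of 825 to 1425 and 16.7 to 63.8 RPKM. The pluripotency sums mostly follow Dppa5a, which alone held 0 to 246 and 593 to 9806 RPKM. Of 6 endoderm genes Foxa2 fell by 2.06 on the log2 scale (limma, adjusted p = 0.047), with list sums of 1.27 to 14.1 RPKM in GFP-positive and 17.3 to 43.6 RPKM in GFP-negative samples that do not overlap. In the GFP-negative samples Foxa2 alone had a median of 29.5 RPKM, against 35.2 for the list, and no other endoderm gene exceeded 4.42 RPKM. The list sums thus mainly describe Foxa2 in these cultures and are not read as a level of endoderm. Sox17, Gata4, Gata6, Afp and Cubn were not called between these fractions (limma). Of 8 neural progenitor genes Sox2 fell by 2.97 (limma, adjusted p = 0.00105), and the list sums of 32.0 to 202 and 101 to 257 RPKM overlap. Afp, an endoderm gene, was at 0 in all 6 GFP-positive samples, and no gene of the epithelial or pluripotency lists was at 0 in all 6 samples of either fraction. Their part in the changes of Cdh1, and that of the neuron markers in the changes of Cdh6, Cdh12, Celsr3 and Pcdh17, was not tested.

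Among the pathway lists, most genes were not called between the oculomotor fractions. Of 9 catenins, Ctnna2, the neuronal alpha-catenin, rose by 2.63 on the log2 scale and Pkp4, a plakophilin-related catenin, fell by 1.68 (limma, adjusted p = 0.00084 and 0.00266), while Ctnnb1 (beta-catenin) had medians of 74.5 and 118 RPKM and was not called (limma, adjusted p = 0.143). Of 9 planar cell polarity partners of the Celsr proteins, Prickle1 rose by 2.32 on the log2 scale (limma, adjusted p = 0.00354) and 8 were not called. Of 5 repressors of Cdh1 transcription, Zeb1 rose by 1.78 on the log2 scale (limma, adjusted p = 0.00013), from 3.00 to 3.71 RPKM in GFP-negative to 9.26 to 23.8 RPKM in GFP-positive samples, and Snai1, Snai2, Twist1 and Zeb2 were not called. Of 6 partners of delta protocadherins, Cyfip2 rose by 1.64 on the log2 scale (limma, adjusted p = 0.0062), and of 7 Fat and Dachsous genes none was called, with 2 at an unadjusted p under 0.05. The median log2 change was 0.56 over the catenins, 0.62 over the polarity partners, -0.37 over the repressors, 0.34 over the delta partners and -0.01 over the Fat and Dachsous genes, beside 0 over all genes tested. In all, 5 of these 36 genes were called between the oculomotor fractions, where 6.15% of all genes tested were. None was called (limma) in the other 4 comparisons, where 0.32% to 1.23% of all genes were. There 6 (motor neuron types), 9 (spinal fractions), 5 (GFP-negative cells) and 6 (interaction) had an unadjusted p under 0.05. Over all genes tested these counts were 1951 of 19240, and 2315, 2500 and 1582 of 22179.

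**Figure D3:**
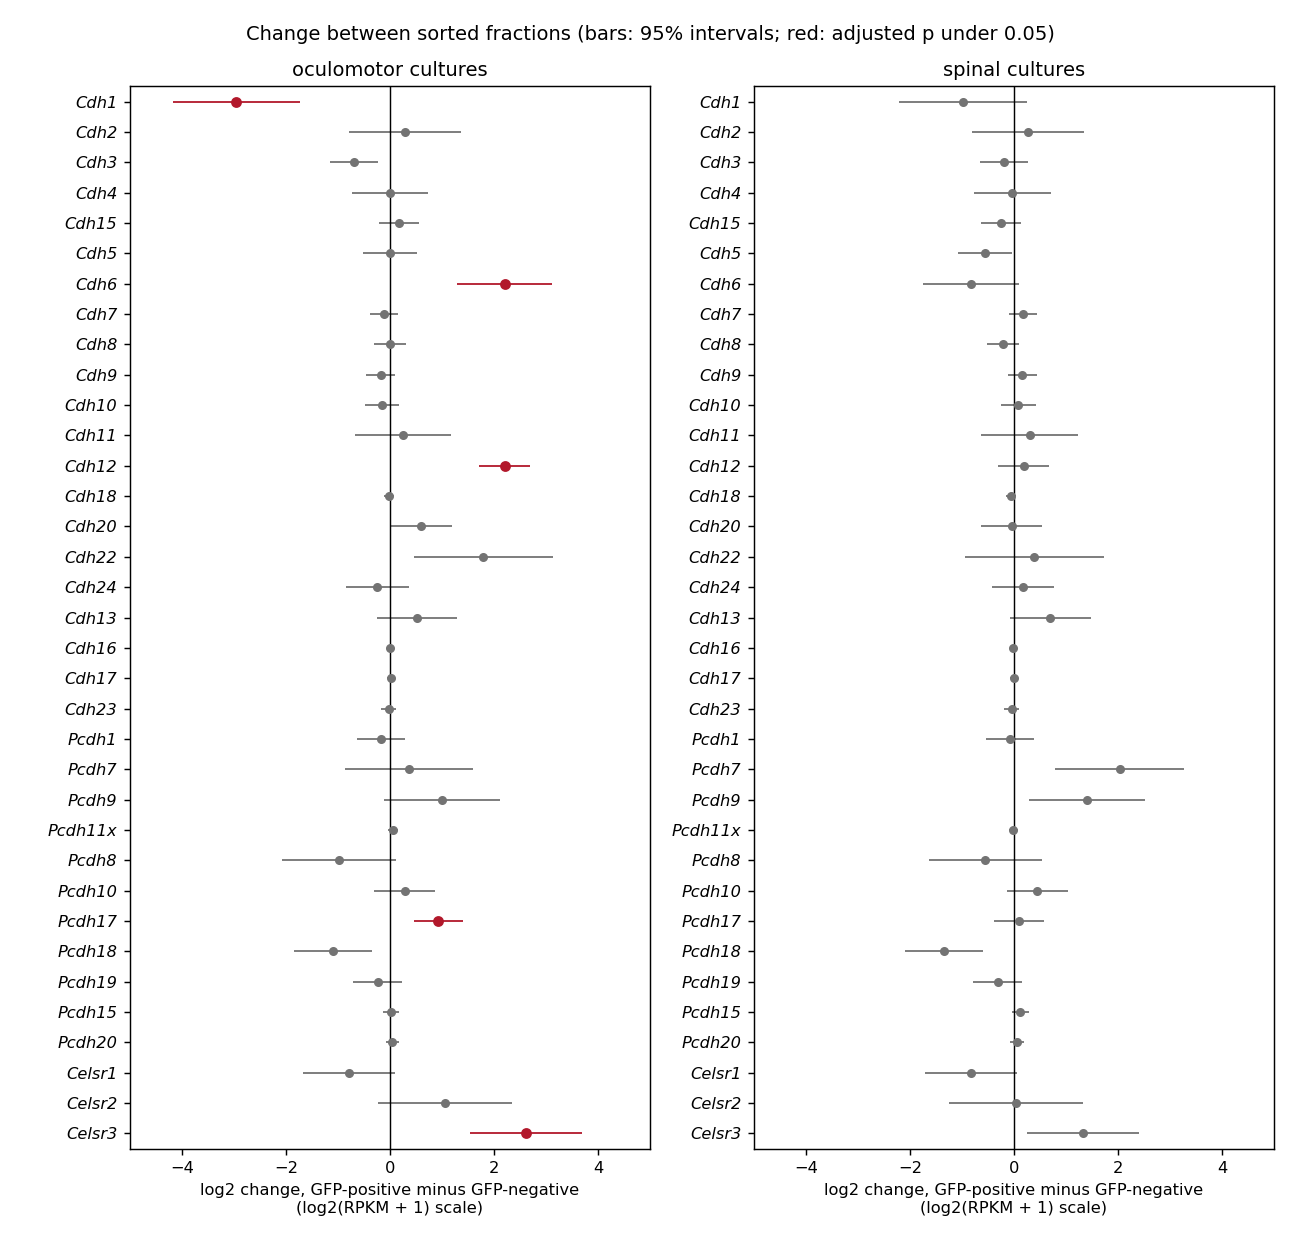
Log2 change from the GFP-negative to the GFP-positive fraction of each of the 35 members tested, in oculomotor (left) and spinal (right) cultures; points are estimates, bars 95% intervals, and red marks an adjusted p under 0.05. On the left Cdh6, Cdh12, Celsr3 and Pcdh17 are red above 0 and Cdh1 is red below 0, and on the right none is red.

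In spinal cultures, 0 of 35 members were called between the fractions in the fit of all 24 samples, where 1.23% of all genes were called, and 5 had an unadjusted p under 0.05 (limma), as did 2315 of all 22179 genes tested. The delta protocadherins Pcdh18 and Pcdh7, named here after their values were seen, came closest in the unadjusted p. With the pairs as a replicate block, 1 member was called (Pcdh7), where 2.93% of all genes were. Without both libraries of number 4, 2 were called (Pcdh7 and Pcdh18), where 2.9% of all genes were, and with both changes 3 were (Celsr3 as well), where 5.67% were.

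Pcdh7, a delta-1 protocadherin known as NF-protocadherin, lay between 0.0241 and 24.7 RPKM in spinal GFP-positive samples (median 5.71) and between 0.0666 and 1.73 in GFP-negative samples (median 0.118). It was higher in the GFP-positive sample in 5 of 6 pairs, and the exception was number 4, whose GFP-positive library held 0.0241 RPKM against 2.03 to 24.7 in the other 5. The log2 change was 2.03 (SE 0.60; limma, adjusted p = 0.109) in all samples, 2.03 (SE 0.42, adjusted p = 0.0238) with the pairs as a block and 2.45 (SE 0.56, adjusted p = 0.0158) without number 4. Without the GFP-positive library of number 4 alone it was 2.54 (limma, adjusted p = 0.00843). Over the 12 settings other than leaving out 1 sample, the change ran from 1.51 to 3.17. Its adjusted p ran from 0.00241 to 0.498 (limma), and it was called in 6 of these settings. In oculomotor cultures Pcdh7 was 0.295 to 3.06 RPKM (median 2.27) and 0.260 to 3.34 RPKM (median 0.699), higher in 3 of 6 pairs, and its interaction was -1.67 (95% interval -3.41 to 0.08; limma, adjusted p = 0.728). Of its exon bases, 21.1% are also exon of a gene annotated on the opposite strand, and since the counting is not stated to use strand, reads of both cannot be told apart there.

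Pcdh9, a delta-1 protocadherin, had medians of 2.82 RPKM (0 to 18.1) in spinal GFP-positive and 0.234 RPKM (0.0208 to 1.76) in spinal GFP-negative samples, with a log2 change of 1.41 (SE 0.54; limma, adjusted p = 0.301), and of 1.72 (SE 0.55, adjusted p = 0.108) without number 4, whose GFP-positive library was at 0. In oculomotor cultures it lay between 0.635 and 3.02 RPKM in GFP-positive and between 0 and 0.437 RPKM in GFP-negative samples. These groups do not overlap and it was higher in 6 of 6 pairs, but the log2 change of 1.00 (SE 0.54) was not called (limma, adjusted p = 0.353).

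Pcdh18, a delta-2 protocadherin, had lower levels in the GFP-positive fraction of both cultures. It lay between 0.232 and 3.01 RPKM in spinal GFP-positive with a median of 0.609 and between 1.23 and 7.20 RPKM in spinal GFP-negative samples (median 3.73), and between 0.527 and 1.68 RPKM (median 0.971) and 1.496 and 6.92 RPKM (median 2.69) in the oculomotor fractions. In each culture it was lower in the GFP-positive sample in 5 of 6 pairs. The spinal log2 change was -1.35 (SE 0.36; limma, adjusted p = 0.0688), and -1.53 (adjusted p = 0.0253) without number 4. It was also called without the spinal GFP-negative library 4 alone (-1.56, adjusted p = 0.0198) or the GFP-positive library 6 alone (-1.57, adjusted p = 0.0301). Over the 12 settings other than leaving out 1 sample, the spinal change ran from -2.19 to -0.99. Its adjusted p ran from 0.0253 to 0.520 (limma), and it was called in 4 of these settings. The oculomotor change was -1.09 (SE 0.36; limma, adjusted p = 0.0788).

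Endoderm markers moved with the spinal fractions. Of 6 such genes, 4 were called lower in GFP-positive cells (Sox17, Gata4, Gata6 and Cubn), and the list summed to 2.11 to 14.3 RPKM in GFP-positive and 5.28 to 106 RPKM in GFP-negative samples (60.9 to 106 without number 4), with Afp at 0 in all 6 GFP-positive samples. Of the 6 neuron markers, 4 rose (Tubb3, Stmn2, Elavl4 and Dcx), and of 8 epithelial genes 3 fell (Krt8, Krt18 and Ocln). Their part in the values of Pcdh7 and Pcdh18 was not tested. Cdh5 (VE-cadherin), the cadherin of blood vessels, was above 0 in 4 samples of all 24 and reached 4.23 RPKM in 1 spinal GFP-negative sample, number 6. The 5 endothelial and blood markers summed to at most 12.3 RPKM in any sample, and that sample was the spinal GFP-positive library of number 4. In the spinal GFP-negative samples other than number 4 they summed to at most 5.03 RPKM.

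**Figure D4:**
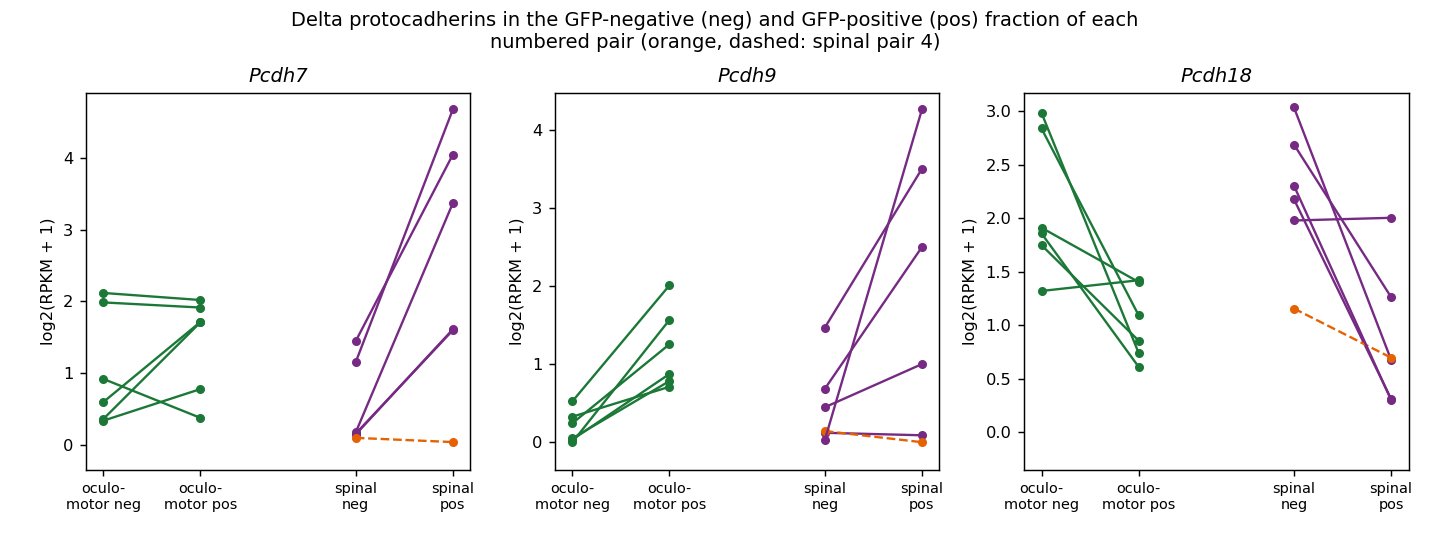
Pcdh7, Pcdh9 and Pcdh18 as log2(RPKM + 1) in the GFP-negative and GFP-positive sample of each numbered pair, oculomotor in green and spinal in purple, with spinal pair 4 as an orange dashed line. Pcdh7 goes up in 5 of 6 spinal pairs and stays near 0 in pair 4, Pcdh9 goes up in 6 of 6 oculomotor pairs, and Pcdh18 goes down in 5 of 6 pairs of each culture.

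The interaction of culture and fraction asked which fraction differences themselves differed between the cultures. Of 35 members, 2 were called (Cdh12 and Cdh6), where 0.32% of all genes tested were called. Cdh12 rose by 2.02 more, on the log2 scale, in the oculomotor than in the spinal cultures (SE 0.34; limma, adjusted p = 0.00419). For Cdh6 the difference was 3.03 (SE 0.63; limma, adjusted p = 0.0279), with a spinal log2 change of -0.82, lower in the GFP-positive sample in 5 of 6 spinal pairs, against 2.20 in oculomotor cultures. With the pairs as a block both stayed called (limma, adjusted p = 0.00915 and 0.0153), as they did without number 4 (0.00638 and 0.025). Within replicates 1 to 4 neither was (log2 differences 1.96 and 3.45; limma, adjusted p = 0.225 for both), nor within replicates 5 and 6 (2.14 and 2.18; 0.105 and 0.498). The Cdh6 call was lost on leaving out oculomotor GFP-positive sample 1 or 2 (limma, adjusted p = 0.0515 and 0.0609), oculomotor GFP-negative sample 2 or 4 (0.0647 and 0.0587), spinal GFP-positive sample 5 (0.0585) or spinal GFP-negative sample 1 or 3 (0.0633 and 0.057), with log2 differences from 2.85 to 2.97.

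Cdh1 and Cdh2 set the spinal libraries of number 4 apart from the other spinal ones. Without number 4, Cdh1 lay between 0 and 2.24 RPKM in spinal GFP-positive and between 1.55 and 8.26 RPKM in spinal GFP-negative samples. In number 4 it stood at 13.8 and 17.3 RPKM, above every other spinal sample. Cdh2 stood at 3.84 and 4.35 RPKM in these 2 libraries, below every other sample of the experiment, against 13.4 to 49.9 RPKM in the other GFP-positive and 15.9 to 52.7 RPKM in the other GFP-negative spinal libraries. In this pair Cdh1 held 57.1% and 59.0% of the summed classical cadherin RPKM, the highest shares of the 24 samples. The pluripotency list summed to 5142 RPKM in the GFP-positive and 5785 RPKM in the GFP-negative library of number 4, against 14.4 to 12400 and 74.4 to 393 RPKM in the other 5 of each group, and its part in these levels was not tested. Dppa5a dominates these sums, reaching 12328 RPKM in the spinal GFP-positive group. Pou5f1, of the same list, stood at 31.5 and 50.3 RPKM in number 4, against at most 2.22 and 2.10 RPKM in the other 5. Between the spinal fractions Cdh1 had a log2 change of -0.98 (95% interval -2.20 to 0.24) and Cdh2 one of 0.27 (-0.80 to 1.35). Without number 4 these were -1.12 (-2.16 to -0.08; limma, adjusted p = 0.326) and 0.36 (-0.46 to 1.17). Between the oculomotor fractions Cdh2 had medians of 16.6 and 15.4 RPKM and a log2 change of 0.29 (-0.78 to 1.37), so that the fall of Cdh1 stood beside Cdh2 values that overlapped.

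**Figure D5:**
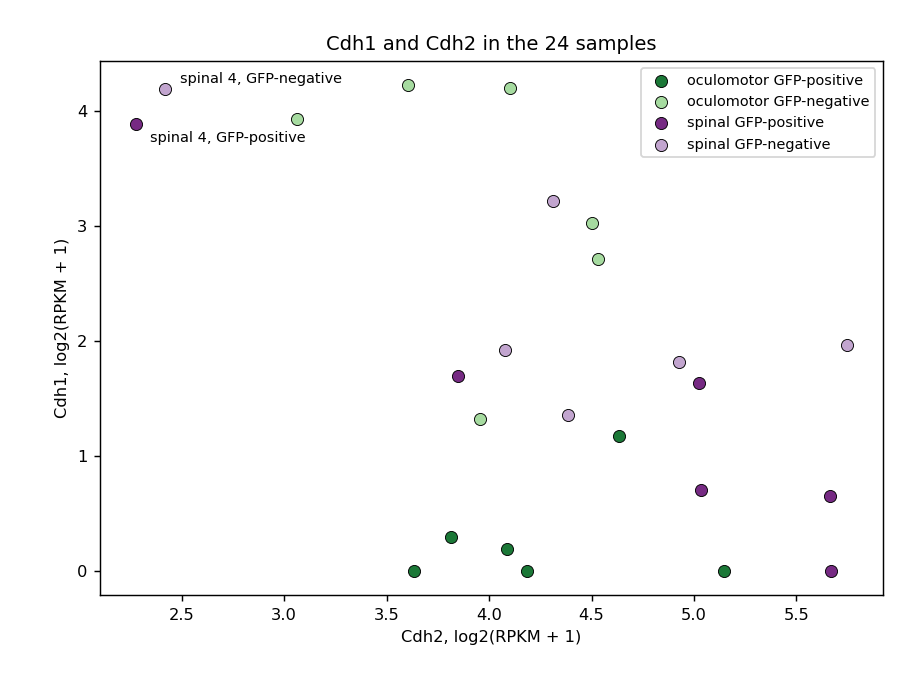
Cdh1 against Cdh2 in the 24 samples, both as log2(RPKM + 1), colored by group. The 2 spinal libraries of number 4 lie apart at the upper left, with the lowest Cdh2 and high Cdh1, the oculomotor GFP-positive samples lie along the bottom, and the oculomotor GFP-negative samples hold an overlapping range of Cdh2 at higher Cdh1.

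Between the GFP-negative fractions of the 2 cultures, 0 of 35 members were called (limma), where 0.96% of all genes were called, and 5 had an unadjusted p under 0.05, all with lower means in oculomotor cells: Cdh5, Cdh8, Cdh11, Celsr2 and Pcdh19. Over all 22179 genes tested, 2500 had such a p. No member was apart in all 6 against 6 values, which held for 1.27% of all genes. Without number 4, Cdh11 was called (limma, adjusted p = 0.0419; log2 change -1.25, SE 0.33), where 2.67% of all genes were. Cdh11, a type II cadherin of mesenchyme and spinal cord, lay between 0.421 and 1.33 RPKM in oculomotor GFP-negative samples (median 1.13) and between 1.46 and 8.06 RPKM in 5 of the spinal GFP-negative libraries, against 0.264 RPKM in number 4. Its level was 1.07 to 2.16 RPKM in oculomotor GFP-positive and 0.201 to 10.7 RPKM in spinal GFP-positive samples, again lowest in number 4. Pcdh19 lay between 0.1001 and 0.658 RPKM (median 0.237) in oculomotor and between 0.312 and 2.41 RPKM (median 1.19) in spinal GFP-negative samples, with a log2 change of -0.81 (SE 0.23; limma, adjusted p = 0.0956). Without the spinal GFP-negative sample 5 it was called (-0.97, adjusted p = 0.0347), and without number 4 the change was -0.85 (adjusted p = 0.0568). Cell type markers also differed between these fractions: Gata4, Gata6 and Sox17 of the 6 endoderm genes were called lower and the pluripotency gene Tdgf1 higher in oculomotor cells. Endoderm sums were 17.3 to 43.6 RPKM in oculomotor and 5.28 to 106 RPKM in spinal GFP-negative samples (60.9 to 106 without number 4), and pluripotency sums 684 to 9876 and 74.4 to 5785 RPKM (74.4 to 393 without number 4). Foxa2 alone had medians of 29.5 and 29.6 RPKM in these groups and was not called (limma, adjusted p = 0.886). The oculomotor endoderm sums thus mainly describe Foxa2. Of the pluripotency genes, Dppa5a alone reached 9806 and 5434 RPKM. Neuron sums were 16.7 to 63.8 and 50.8 to 200.4 RPKM, with none of the 6 genes called (limma) and 5 at an unadjusted p under 0.05. The part of these markers in the values of Cdh11 and Pcdh19 was not tested.

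The seven-pass genes other than Celsr3 were not called in any of the 5 comparisons in the fits without a block. Celsr2, the second highest member, had medians of 6.32 RPKM (1.35 to 24.5) in oculomotor GFP-positive, 1.91 (0.919 to 7.47) in oculomotor GFP-negative, 10.96 (1.29 to 29.3) in spinal GFP-positive and 8.97 (2.57 to 25.6) in spinal GFP-negative samples. Its lowest values were in the oculomotor GFP-negative group, where the log2 change from spinal GFP-negative cells was -1.61 (95% interval -2.90 to -0.32; limma, adjusted p = 0.299). It was -1.72 (limma, adjusted p = 0.219) without number 4 and -2.06 (adjusted p = 0.00635) without number 4 and with the replicate block, the 1 setting tried in which Celsr2 passed the threshold. Here the block matched samples of the cultures by number. Only 2 GFP-negative numbers correlated best with their own across cultures (same-number correlations -0.04 to 0.61), so this call rests on a pairing that the samples do not show. Celsr1, known from neural tube closure and progenitors, had medians of 0.836 and 2.20 RPKM in the oculomotor and 1.41 and 3.13 RPKM in the spinal GFP-positive and GFP-negative groups, lower in the GFP-positive sample in 5 of 6 oculomotor and 4 of 6 spinal pairs. Celsr1 and Celsr3 thus had opposite orders between the fractions in these samples, Celsr1 without a call.

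The remaining members were not called in any of the 5 comparisons. Cdh4 (R-cadherin) was above 0 in all samples, at 0.326 to 4.06 RPKM, and Cdh13 (T-cadherin, which has no tail inside the cell) at 0.0228 to 4.11 RPKM. Pcdh8, a delta-2 protocadherin, reached 15.0 RPKM in an oculomotor GFP-negative sample and had medians of 1.87 and 3.54 RPKM in the oculomotor and 1.08 and 2.13 RPKM in the spinal GFP-positive and GFP-negative groups. Pcdh10 reached 3.90 RPKM in 1 spinal GFP-positive sample and Cdh20 4.80 RPKM in 1 oculomotor GFP-positive sample, while their medians in these groups were 0.25 and 0.755 RPKM. Cdh7, Cdh8, Cdh15, Cdh24 and Pcdh1 exceeded 1 RPKM in 1 or 2 samples each.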

How the data were processed

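Poly(A) RNA of 24 sorted samples was sequenced from SMART-seq2 libraries without molecular identifiers, so reads are not independent molecules. The 95% intervals come from the limma fits and reflect the spread between samples. Per the labels and methods, the authors mapped reads to mm10 (HISAT2 2.0.3), excluded shallow samples and deposited RPKM computed with rpkmforgenes, the unit used here, with no counts. The gene annotation behind it is not given in the sources used here. The authors ran DESeq2 1.12.4, not used here. Of the 22889 entries, 37 were at 0 throughout, 25 had names turned into dates and 4 shared a name.

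Groups came from the labels. Log2(RPKM + 1) was fitted with limma 3.58.1 (R 4.3.3; eBayes with trend) for genes above 0 in at least 2 samples. The 12 GFP-positive samples were fitted alone for oculomotor against spinal motor neurons, and all 24 in 4 groups otherwise. The offset understates changes of low genes. Scripts were tested on simulated data. Reads were estimated from RPKM steps in 5911 single-transcript genes (95.8% to 97.8% of low values within 2% of a whole read). For Cdh6, Cdh9, Cdh12, Cdh24, Celsr1 and Pcdh17 the length came from the steps themselves. The read estimates of Cdh6 share a common factor, so its length and reads may be overstated, and no reads of Cdh6 are given. Fractions of the same culture and number were paired, since their deviations correlated in every pair (0.38 to 0.73 in oculomotor and 0.42 to 0.66 in spinal cultures, 11952 genes).

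Full values were given for members called in a comparison or apart between cultures, for the 6 of highest mean level, and for Cdh6 and Cdh12. Others are named by range, or because their calls changed with a setting. The members and lists were chosen with earlier results of these data known. Alternatives covered the offset, filter, scaling, weights, pairing, depth batches and omitted samples.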

Additional observations from a re-analysis of the deposited data

Results flagged for a closer look

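Of 32 sets of 6 values (8 genes with full values in 4 groups), 6 held a sample whose gap to the next one, as a share of the range of log2(RPKM + 1), was past the 95% Dixon limit, where chance gives about 1 in 20 for normally distributed values. Cdh1 in oculomotor GFP-positive and Cdh12 in spinal GFP-negative samples each had 3 values at 0, where that rate does not hold. The 6 flags mark samples to look at, and whether they exceed chance was not tested. Cdh1 in oculomotor GFP-positive sample 2 stood at 1.25 RPKM, against 0 to 0.222 in the other 5. Celsr2 and Pcdh17 both stood out in oculomotor GFP-negative sample 4, at 7.47 RPKM (0.919 to 1.97 in the others) and 0.624 RPKM (0 to 0.174). Cdh12 stood at 0.628 RPKM in spinal GFP-negative sample 2 (0 to 0.0417 in the others), the library in which 3 gene models held 68.8% of the summed RPKM. Celsr3 stood at 17.6 RPKM in spinal GFP-positive sample 3 (1.12 to 3.76) and Pcdh17 at 1.52 RPKM in spinal GFP-positive sample 6 (0.0904 to 0.451). Between the oculomotor fractions, Cdh1, Cdh12, Celsr3 and Pcdh17 kept their calls on leaving out any single sample.

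Cdh6 and Cdh12 are also listed because their change between fractions differed between the cultures, by 3.03 and 2.02 on the log2 scale in the interaction term.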

How the results depend on the processing

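Members called between oculomotor and spinal motor neurons (2) numbered 1 with the replicate block or replicates 1 to 4 only, and 0 in replicates 5 and 6 only or with the block without spinal number 4. Over all genes, the main fit called 116 of 19240 tested. These settings called 73 of 19240, 30 of 17863, 13 of 16187 and 52 of 18794. Members called between oculomotor fractions (5) numbered 8 with sample weights or a fit of the 12 samples compared, 7 with the replicate block and 1 in replicates 5 and 6 only. Over all genes, the main fit called 1364 of 22179 tested. These settings called 3795 of 22179, 2388 of 18932, 3644 of 22179 and 884 of 18652. Members called between spinal fractions (0) numbered 1 with a mean above 1 RPKM, the replicate block or replicates 5 and 6 only, 2 with sample weights, without number 4, or without it and spinal GFP-negative sample 2, and 3 with the block without number 4. Over all genes, the main fit called 272 of 22179 tested. In the same order these settings called 277 of 11952, 649 of 22179, 300 of 18652, 484 of 22179, 633 of 21837, 649 of 20880 and 1238 of 21837. No member was called between spinal fractions in replicates 1 to 4 only or in a fit of the 12 samples compared. Those fits called 1 of 20942 and 4 of 20877 genes. Members called between GFP-negative groups (0) numbered 1 with weights, without number 4, or without it and sample 2, and 3 (Cdh11, Celsr2 and Pcdh19) with the block without number 4. Over all genes, the main fit called 213 of 22179 tested. These settings called 650 of 22179, 584 of 21837, 573 of 20880 and 1435 of 21837. Members called in the interaction (2) numbered 1 with an offset of 0.1 RPKM (Cdh6 lost, limma, adjusted p = 0.0944) and 0 in either depth batch. Over all genes, the main fit called 71 of 22179 tested. These settings called 74 of 22179, 10 of 20942 (replicates 1 to 4) and 84 of 18652 (replicates 5 and 6). Leaving out 1 sample gave 1 to 2, 5 to 6, 0 to 1, 0 to 1 and 1 to 2 members called in these comparisons. The causes were not tested. The block combined with leaving out number 4, and leaving out sample 2 with it, were chosen after seeing the data. Between the cultures the numbers did not pair the samples (same-number correlations -0.17 to 0.71). In comparisons between cultures the block still matched samples by number, so its calls there rest on an unsupported pairing.

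Over 581 alternative fits of 17 gene changes, 0 reversed in direction, 28 lost and 34 gained a call. Each of the 17 was called in the main fit or in some other setting. Most of the fits left out a single sample, and so shared nearly all samples with the main fit. The absence of reversals is therefore not independent support for these changes. Levels under about 0.3 RPKM rest on few reads in the shallow libraries, and a missing call there does not show equal levels. Replicates 5 and 6 alone have 2 samples a group.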
